A study of Mus musculus with 18 samples.

Results

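The Slc25 genes encode the mitochondrial carriers, and 40 of the 27597 genes named on a mouse expression array were taken here as members because their symbol is Slc25a followed by a number in the array's newer gene names. Slc25a1 and Slc25a20 were left out of the members by that rule. The 18 one-colour arrays measured RNA of C57BL/6 mice, male and young adult per the labels, from interscapular brown fat, inguinal white fat and epididymal white fat. Each depot was digested with collagenase and divided by flotation and centrifugation into adipocytes and a stromal-vascular fraction (SVF), in which erythrocytes were lysed. This gave 6 groups of 3 biological replicates, with no treatment or altered gene named for any group. The labels did not say whether a replicate was 1 mouse or a pool, so p-values describe the spread between these samples.

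Mitochondrial carriers sit in the inner membrane and are folded from repeats of a single transmembrane unit. Most exchange a metabolite, nucleotide or cofactor of the cytosol for another of the matrix, so the enzymes on either side of an otherwise tight membrane can share their substrates. Brown fat is dense in mitochondria, and the uncoupling protein that makes its heat, Ucp1, belongs to the same protein superfamily. White adipocytes use carriers to export citrate for fat synthesis and to import fatty acids bound to carnitine.

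A total of 69 probes of 60 bases matched the members, and 57 of them exceeded background clearly on each of the 3 arrays in 1 group or more. The brightest such probe stood for its gene, which left 36 members for testing. Slc25a41 was kept through epididymal adipocytes alone and Slc25a43 through epididymal SVF alone, and 29 members were above background on all arrays of all 6 groups. Slc25a15 (ornithine), Slc25a18 (glutamate), Slc25a21 (oxodicarboxylates) and Slc25a31 (the germ cell ADP/ATP carrier) had no probe that passed and were not tested. A choice between kept probes was made for 15 of the 36. When the probes were tested separately, those of 5 of the 15 gave different calls in the brown, of 7 in the inguinal and of 4 in the epididymal fraction comparison, and no member had probes called in opposite directions. The first 30 bases of both probes are shown for Slc25a26, whose probes both passed in every depot, and for Slc25a24 and Slc25a35, whose probes did not give the same calls, in lower case, 5′ to 3′, with the position of the probe on mouse build mm8 as the array files give it.
Slc25a26, first probe, chr6:94563861-94564654, plus strand: tgactacacctctggacgtggctaagacaa
Slc25a26, second probe, chr6:94569974-94570033, plus strand: agtgaccgccgcacacacttagtatttata
Slc25a24, first probe, chr3:109289356-109289415, plus strand: aggctttggggctttttacaaaggctacat
Slc25a24, second probe, chr3:109296404-109296463, plus strand: catcttgtatcttttttggggaaaaaaccc
Slc25a35, first probe, chr11:68788492-68788551, plus strand: cacaaatcccccgatatatttcatacccat
Slc25a35, second probe, chr11:68790423-68790482, plus strand: aagattcagacctcaagccttgatacctaa
In each pair the second probe was the brighter and stood for the gene. The first Slc25a26 probe covers more genome than its 60 bases, so its sequence is joined from separate stretches of that region. Per the array's annotation the first Slc25a35 probe was designed on the RefSeq transcript and the second on a cDNA clone.

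The 75th percentile of the processed signal, to which each array was scaled, ran from 338 to 1259, and 49.6% to 87.9% of spots were well above background. No spot was saturated. Levels are given as log2 of the signal relative to that percentile, so a level of 0 equals it, and levels of different genes come from different probes and are not compared. Some libraries stood apart from the others of their group. Inguinal SVF replicate 1 went against the sex in its label: Ddx3y, a Y-linked gene, read -6.50 there and 0.18 to 1.65 on the other 17 arrays. Its 6 mesothelial markers summed to 135.4 times the percentile signal, against 0.729 and 0.954 in the other inguinal SVF arrays. Brown SVF replicate 2 held more adipocyte RNA, with 6 adipocyte markers summing to 525.2 there, to 65.85 and 82.46 in the other brown SVF arrays and to 648 to 1789 on the adipocyte arrays. Epididymal adipocyte replicate 1 had the 87.9% of spots above background, and replicate 3 had a brown adipocyte marker sum of 144.4, against 13.39 and 10.18 in replicates 1 and 2. The 6 white adipocyte arrays were read with an older version of the image software than the other 12. The fraction differences in white fat and those between brown and white adipocytes can therefore not be told apart from the software version and scan day. The brown fat fractions shared slides and software.

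In brown fat, 14 of the 36 tested carriers were higher and 3 lower in adipocytes than in SVF at an adjusted p under 0.05 (limma with Benjamini-Hochberg adjustment over 19217 genes). Of all genes tested, 12.7% were called higher and 8.35% lower. With the deposited matrix, in place of the scanner signals, the members' split was 12 higher and 5 lower. The median difference was 0.71 (log2) over the members and 0.15 over all genes. Those higher in adipocytes included Slc25a4, Slc25a5, Slc25a11, Slc25a16, Slc25a17, Slc25a22, Slc25a23, Slc25a26, Slc25a33, Slc25a39, Slc25a42, Slc25a44 and Slc25a46. The lower ones were Slc25a12, Slc25a24 and Slc25a45. Each of the 17 differences had the same sign within the slide of 2 arrays per fraction and within the slide of 1 array per fraction. This sign was fixed in advance for every call whose fractions did not overlap, so it is no check on the slides. When arrays were left out singly, 8 of the 17 calls were kept in every one of 18 fits, and the fits called 8 to 18 members. Without brown SVF replicate 1 the count was 8, and without brown SVF replicate 3, brown adipocyte replicate 1 or brown adipocyte replicate 3 it was 9. Any of those 4 omissions ended the calls of Slc25a4, Slc25a12, Slc25a16, Slc25a23, Slc25a33 and Slc25a45, some of them ended those of Slc25a17 and Slc25a22, and that of Slc25a5 was lost in 14 fits, with adjusted p up to 0.163. These are bulk fractions, so a carrier's lower level can come from fewer cells of a type or from less RNA per cell, which cannot be told apart. Summed progenitor and fibroblast markers were 328.9 to 375.6 in brown SVF and 43.98 to 58.79 in brown adipocytes, and their part in these differences was not tested.

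In inguinal fat, 10 members were higher and 5 lower in adipocytes, with a median difference of 0.45 over the members and 0.01 over all genes. Of all genes, 9.16% were called higher and 4.81% lower. The higher members included Slc25a5, Slc25a10, Slc25a22, Slc25a25, Slc25a26, Slc25a33, Slc25a39, Slc25a44 and Slc25a46, and the lower ones were Slc25a12, Slc25a13, Slc25a14, Slc25a24 and Slc25a27. The calls of Slc25a12, Slc25a26 and Slc25a44 were kept in all 18 fits that left out an array, while the fits called 4 to 14 members. The count was 4 without inguinal adipocyte replicate 3, 5 without inguinal SVF replicate 1 and 9 without inguinal SVF replicate 2. Leaving out inguinal SVF replicate 1, the library that went against its label, together with epididymal adipocyte replicates 1 and 3, left 4 calls, and a fit on the 6 inguinal arrays alone left 0. Adjusted p of the lost calls reached 0.225 when single arrays were left out. The progenitor and fibroblast sum was 213.3 to 691.5 in inguinal SVF and 73.06 to 305.3 in inguinal adipocytes, and lymphocyte markers were at 123.3 in inguinal SVF replicate 3 and at 3.161 and 19.53 in the others. Inguinal adipocyte replicate 3 stood apart too, with lymphocyte markers at 1.176 against 30.89 and 24.64 in replicates 1 and 2, and macrophage markers at 6.516 against 32.78 and 28.78. Skeletal muscle markers were at 44.15 in inguinal SVF replicate 2 and at 2.298 and 3.108 in the other SVF arrays. Their part was not tested.

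In epididymal fat, 7 members were higher and 3 lower in adipocytes, with a median of 0.42 over the members and 0.07 over all genes. The background was 18.1% of genes called higher and 6.91% lower, so the share of carriers called higher was close to that of all genes. The split was 8 higher and 7 lower with quantile normalization and 7 and 5 with the deposited matrix. The higher members were Slc25a16, Slc25a23, Slc25a25, Slc25a26, Slc25a35, Slc25a41 and Slc25a42, and the lower ones were Slc25a12, Slc25a27 and Slc25a45. Slc25a41 entered the test only through epididymal adipocytes, so its call is a description. Calls of Slc25a23, Slc25a25 and Slc25a35 were kept whichever single array was left out, with 3 to 13 members called. The count was 3 without epididymal SVF replicate 3 or epididymal adipocyte replicate 1, 5 without epididymal SVF replicate 2, and 6 without epididymal SVF replicate 1 or epididymal adipocyte replicate 3. Without epididymal adipocyte replicates 1 and 3 and inguinal SVF replicate 1 no call was left, but 1 epididymal adipocyte array then remains, which is assumed to vary like the other groups. Adjusted p of the lost calls reached 0.19. Progenitor and fibroblast markers summed to 341.4 to 468.6 in epididymal SVF and 162.9 to 241.1 in epididymal adipocytes, and their part was not tested.

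**Figure D1:**
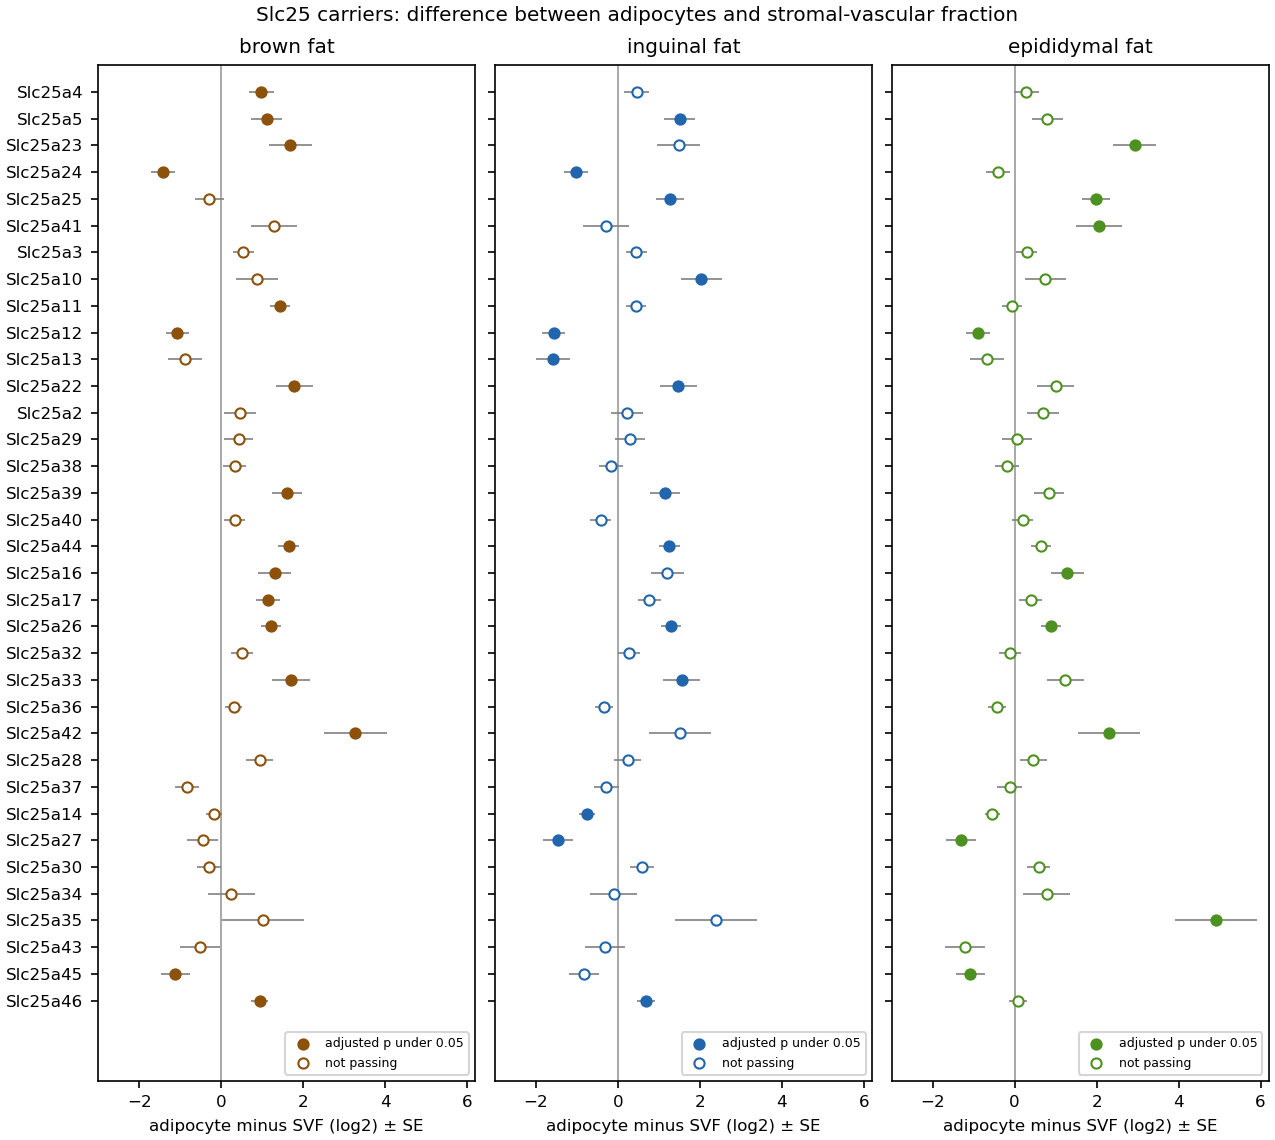
Difference between adipocytes and SVF (log2, horizontal axis) for 35 of the 36 tested carriers in brown, inguinal and epididymal fat, with 3 arrays per group. Points are fitted differences, bars are the standard error, and filled points have an adjusted p under 0.05. In brown fat 13 filled points lie above 0 and 3 below.

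Over the 3 depots, 2 members were called in every fraction comparison, 14 in 2 of them, 8 in 1 and 12 in none. Of all genes, 4.98% were called in all 3, 7.94% in 2, 29.2% in 1 and 57.8% in none. No member was called in opposite directions in different depots. A higher mean level in adipocytes than in SVF in all 3 depots was seen for 19 members and 32.8% of all genes, and a lower one in all 3 for 8 members and 24.8% of genes. The brown adipocytes had the highest mean level of the 6 groups for 19 of the 36 members and for 26.1% of all genes. Of the members called higher in adipocytes, brown fat shared 8 with inguinal fat, which are 8 of its 14 and 8 of the 10 inguinal ones. Over all genes the shared part was 44.9% of the brown and 62.4% of the inguinal calls. With epididymal fat 4 were shared, of 14 brown and 7 epididymal ones, where all genes gave 37.4% and 26.3%.

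**Figure D2:**
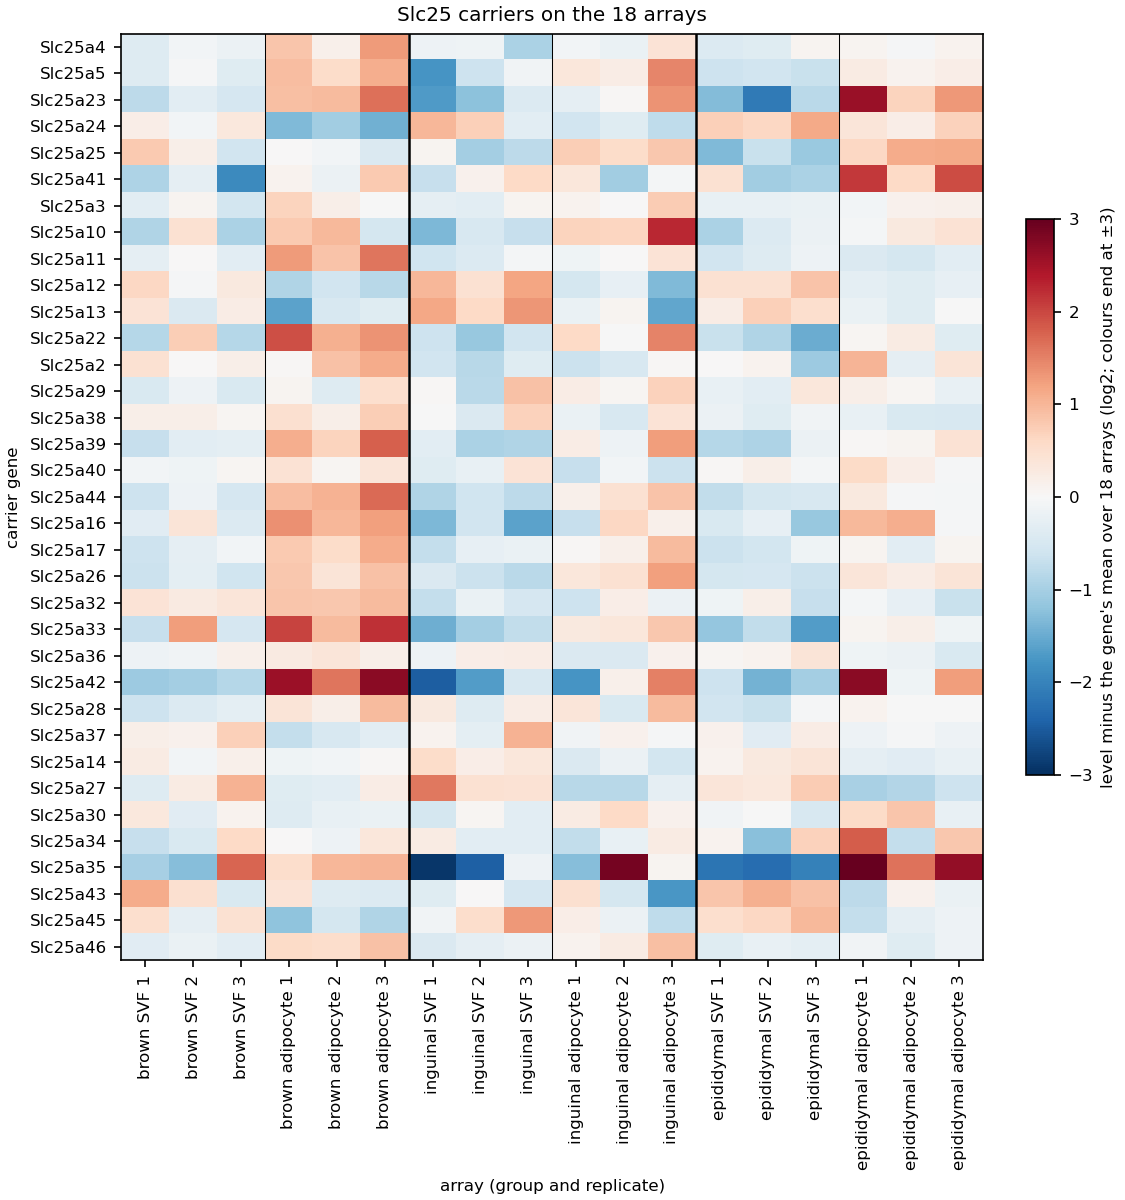
Level of 35 of the 36 tested carriers (rows, ordered by role) on each of the 18 arrays (columns, by group and replicate), shown as the difference in log2 from that carrier's mean over all arrays. Slc25a11 is highest and Slc25a24 lowest on the 3 brown adipocyte arrays.

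Slc25a26 and Slc25a12 were the members called in every depot, in opposite directions. Slc25a26 imports S-adenosylmethionine, the methyl donor used inside mitochondria. It read 1.14, 0.72 and 1.21 on the brown adipocyte arrays and -0.33, 0.03 and -0.27 in brown SVF. The inguinal adipocyte arrays gave 0.66, 0.77 and 1.56 for it, and inguinal SVF -0.10, -0.33 and -0.49. For epididymal fat its levels were 0.68, 0.54 and 0.71 in adipocytes and -0.21, -0.17 and -0.32 in SVF. All 9 adipocyte arrays were thus above all 9 SVF arrays. The differences were 1.21 ± 0.25 (adjusted p = 0.0029) in brown fat, 1.30 ± 0.25 (adjusted p = 0.00385) in inguinal fat and 0.88 ± 0.25 (adjusted p = 0.0183) in epididymal fat, or 2.32-fold, 2.47-fold and 1.84-fold. Its other probe, the first of the pair shown above, gave larger differences of 2.11 ± 0.40 (adjusted p = 0.00231), 1.66 ± 0.40 (adjusted p = 0.0152) and 1.38 ± 0.40 (adjusted p = 0.0245) when each kept probe was tested separately.

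Slc25a12 is the calcium-regulated carrier that exchanges aspartate for glutamate in the malate-aspartate shuttle, which brings reducing equivalents of NADH into mitochondria. It read 0.33, 0.64 and 0.39 in brown adipocytes and 1.85, 1.19 and 1.52 in brown SVF. In inguinal fat the values were 0.68, 0.98 and -0.10 for adipocytes and 2.21, 1.67 and 2.40 for SVF. Epididymal adipocytes had 0.93, 0.86 and 0.97, and epididymal SVF 1.69, 1.68 and 2.09. Every adipocyte array lay below every SVF array. The differences were -1.07 ± 0.29 (adjusted p = 0.0154), -1.57 ± 0.29 (adjusted p = 0.00323) and -0.90 ± 0.29 (adjusted p = 0.033) in the same order of depots, which is 2.09-fold, 2.97-fold and 1.86-fold lower. Slc25a13, the other carrier of the shuttle's aspartate step, was lower in inguinal adipocytes at -3.25, -2.99 and -4.62 than in inguinal SVF at -1.90, -2.47 and -1.75, with a difference of -1.58 ± 0.42 (adjusted p = 0.0219). Brown fat gave -4.66, -3.54 and -3.42 for Slc25a13 in adipocytes, where 2 of 3 arrays were above background, and -2.65, -3.49 and -2.84 in SVF. In epididymal fat it read -3.26, -3.42 and -3.08 in adipocytes and -2.85, -2.36 and -2.56 in SVF. The adipocyte values were below the SVF values without overlap in inguinal and epididymal fat, while brown SVF replicate 2 reached down among the brown adipocytes. The brown difference of -0.88 ± 0.42 (adjusted p = 0.159) and the epididymal one of -0.67 ± 0.42 (adjusted p = 0.259) did not pass.

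**Figure D3:**
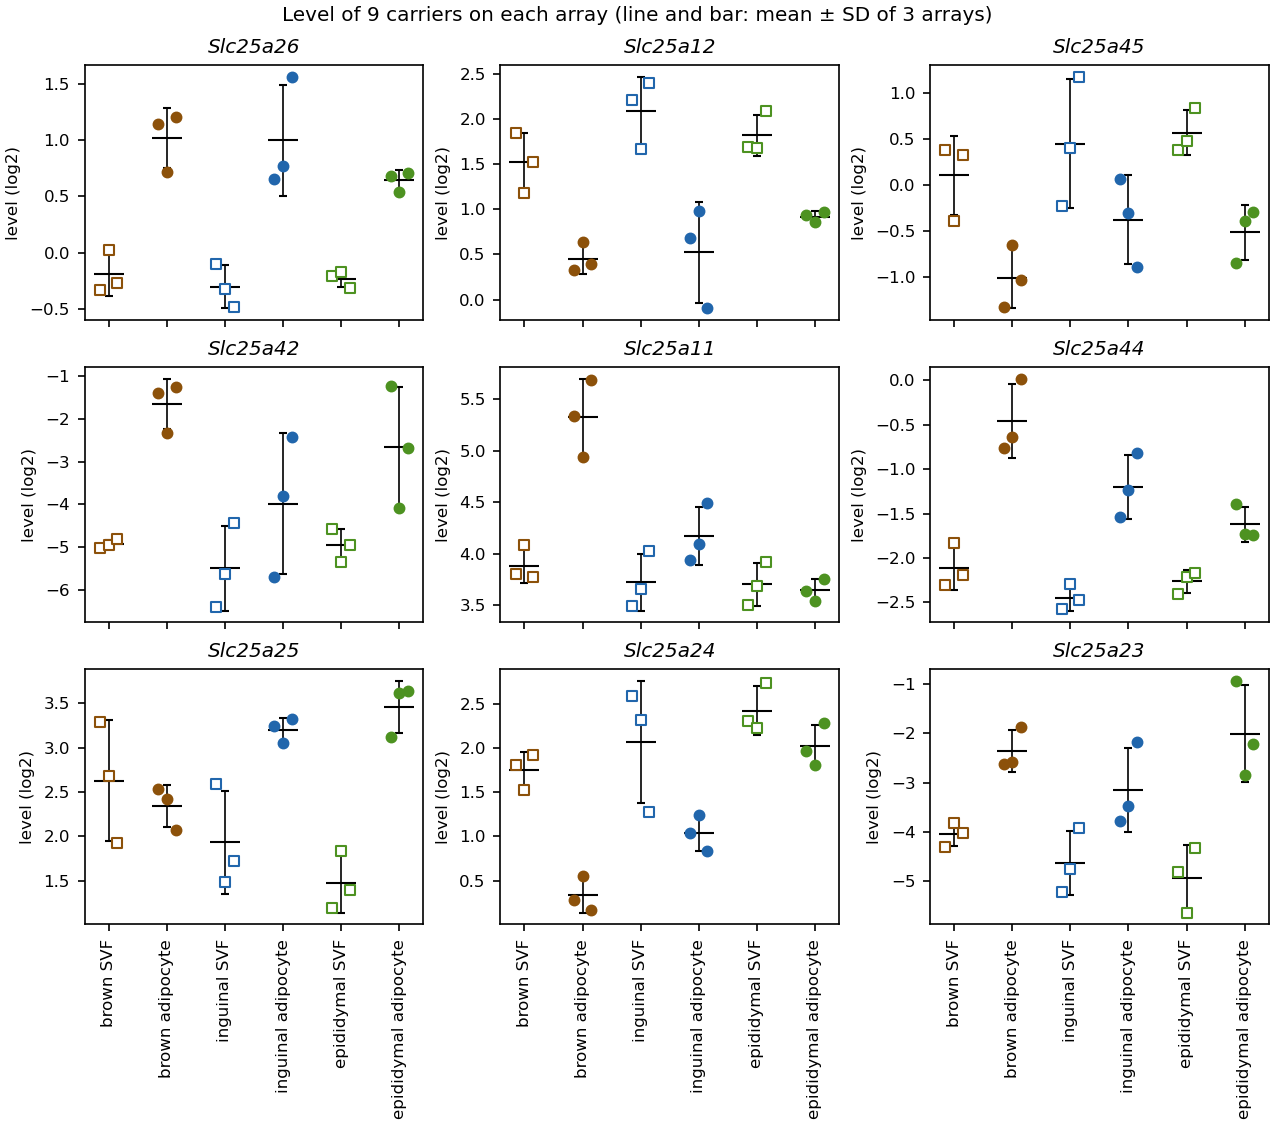
Levels of selected carriers (log2 relative to the array's 75th percentile, vertical axis) in the 6 groups, 1 point per array and a line at the mean of 3. Slc25a26 is higher on every adipocyte array than on any SVF array and Slc25a12 lower.

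The ADP/ATP carriers import ADP for the ATP synthase and export the ATP made there. Slc25a4, the form typical of heart and muscle, read 6.68, 6.00 and 7.13 in brown adipocytes and 5.44, 5.75 and 5.66 in brown SVF, a difference of 0.99 ± 0.30 (adjusted p = 0.0306). The widely expressed Slc25a5 read 6.55, 6.18 and 6.72 in adipocytes and 5.25, 5.59 and 5.26 in SVF, a difference of 1.12 ± 0.38 (adjusted p = 0.0471). For both genes the brown adipocyte arrays all lay above the brown SVF arrays. In inguinal fat, Slc25a4 gave 5.76, 5.65 and 6.26 in adipocytes and 5.68, 5.72 and 4.89 in SVF, which overlapped, and its difference of 0.46 ± 0.30 (adjusted p = 0.327) did not pass. Slc25a5 had 5.96, 5.84 and 7.08 in inguinal adipocytes and 3.84, 4.99 and 5.52 in inguinal SVF, with no overlap and a difference of 1.51 ± 0.38 (adjusted p = 0.0173). The lowest of these SVF values was that of replicate 1, the library that went against its label. In epididymal fat the levels of Slc25a4 were 5.91, 5.81 and 5.95 in adipocytes and 5.42, 5.48 and 5.91 in SVF, and those of Slc25a5 were 5.88, 5.72 and 5.81 in adipocytes and 5.01, 5.06 and 4.97 in SVF. Slc25a5 was higher on each epididymal adipocyte array than on any of the SVF arrays, but neither its difference of 0.79 ± 0.38 (adjusted p = 0.139) nor that of Slc25a4, 0.28 ± 0.30 (adjusted p = 0.525), passed. A second kept probe of Slc25a4 gave 0.76 ± 0.32 (adjusted p = 0.128) in brown fat. Slc25a3, which carries the phosphate that ATP synthesis needs, ran from 3.32 to 4.63 over all 18 arrays. Its differences of 0.54 ± 0.26 (adjusted p = 0.161), 0.45 ± 0.26 (adjusted p = 0.257) and 0.29 ± 0.26 (adjusted p = 0.431) did not pass.

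The ATP-Mg/phosphate carriers set the size of the adenine nucleotide pool in mitochondria and, apart from the short Slc25a41, are switched on by calcium. Their members did not move together. Slc25a24 was lower in adipocytes of brown and inguinal fat, Slc25a23 higher in brown and epididymal fat, and Slc25a25 higher in both white depots. Slc25a24 read 0.27, 0.55 and 0.17 in brown adipocytes and 1.81, 1.52 and 1.92 in brown SVF. It read 1.04, 1.24 and 0.84 in inguinal adipocytes and 2.59, 2.32 and 1.28 in inguinal SVF. Both pairs were free of overlap, with differences of -1.42 ± 0.30 (adjusted p = 0.00369) and -1.02 ± 0.30 (adjusted p = 0.0357). The epididymal values of Slc25a24 were 1.96, 1.80 and 2.29 in adipocytes and 2.31, 2.22 and 2.73 in SVF, which overlapped, and the difference was -0.40 ± 0.30 (adjusted p = 0.349). Its first probe was above background on no brown adipocyte array and on all 3 brown SVF arrays. It read -3.33, -4.24 and -4.30 in brown adipocytes and -3.11, -3.24 and -4.34 in brown SVF, which overlapped. Its brown adipocyte level is near background, so no test result is given there. Tested separately, the probes of Slc25a24 gave different calls in brown fat. In the white depots, where the first probe was above background on all arrays, its differences of 0.08 ± 0.46 (adjusted p = 0.927) in inguinal fat and 0.53 ± 0.46 (adjusted p = 0.442) in epididymal fat did not pass.

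Slc25a23 read -2.62, -2.58 and -1.87 in brown adipocytes and -4.31, -3.83 and -4.02 in brown SVF. Epididymal adipocytes had -0.93, -2.85 and -2.22 and epididymal SVF -4.81, -5.64 and -4.34. Neither depot's fractions overlapped, and the differences were 1.69 ± 0.52 (adjusted p = 0.031) and 2.93 ± 0.52 (adjusted p = 0.00212), 3.23-fold and 7.61-fold. Inguinal fat gave -3.78, -3.47 and -2.18 in adipocytes and -5.21, -4.75 and -3.93 in SVF, where 2 of 3 SVF arrays were above background, and the difference of 1.49 ± 0.52 (adjusted p = 0.07) did not pass. Slc25a25 showed no difference past the threshold in brown fat, at 2.53, 2.42 and 2.08 in adipocytes and 3.29, 2.68 and 1.92 in SVF. It read 3.24, 3.06 and 3.32 in inguinal adipocytes and 2.59, 1.48 and 1.72 in inguinal SVF. In epididymal fat it read 3.12, 3.61 and 3.64 in adipocytes and 1.19, 1.84 and 1.39 in SVF. The fractions overlapped in brown fat, but every white adipocyte array was above the SVF arrays of its depot. The differences were -0.29 ± 0.35 (adjusted p = 0.62) in brown fat, 1.27 ± 0.35 (adjusted p = 0.0261) in inguinal fat and 1.98 ± 0.35 (adjusted p = 0.00202) in epididymal fat, the last being 3.96-fold. A second probe of Slc25a25 passed in both white depots too, with 1.53 ± 0.40 (adjusted p = 0.0209) and 1.96 ± 0.40 (adjusted p = 0.00409), while its remaining kept one passed in neither. Slc25a41 read -3.46, -4.98 and -3.62 in epididymal adipocytes and -5.11, -6.61 and -6.52 in epididymal SVF, where 1 of 3 arrays was above background. The measured difference was 2.06. With the 2 SVF values that lay under the lowest signal well above background raised to that signal, the difference was 1.42. Slc25a41 entered the test only through the group where it was high. Its call is therefore kept in the counts as a description, and no test result is given. None of its brown or inguinal arrays was above background, so no difference is given for those depots.

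Slc25a10 exchanges malate or succinate for phosphate, and Slc25a11 exchanges oxoglutarate for malate as the partner of the aspartate carriers in the shuttle. Slc25a10 read 2.21, 2.20 and 3.80 in inguinal adipocytes and 0.20, 1.06 and 0.85 in inguinal SVF, with no overlap and a difference of 2.04 ± 0.51 (adjusted p = 0.0165), or 4.1-fold. Its brown values of 2.33, 2.51 and 1.02 in adipocytes and 0.63, 2.01 and 0.60 in SVF overlapped, as brown SVF replicate 2 was higher than brown adipocyte replicate 3. In epididymal fat Slc25a10 had 1.49, 1.84 and 1.99 in adipocytes and 0.59, 1.13 and 1.36 in SVF. The brown difference was 0.87 ± 0.51 (adjusted p = 0.259) and the epididymal one 0.75 ± 0.51 (adjusted p = 0.3), and neither passed. Slc25a11 read 5.34, 4.94 and 5.69 in brown adipocytes and 3.80, 4.08 and 3.77 in brown SVF. Its inguinal values were 3.94, 4.10 and 4.49 in adipocytes and 3.49, 3.66 and 4.03 in SVF, and its epididymal ones 3.64, 3.55 and 3.76 in adipocytes and 3.50, 3.69 and 3.92 in SVF. Only in brown fat did the adipocyte arrays stand clear of the SVF arrays. The brown difference of 1.44 ± 0.24 (adjusted p = 0.000859) passed, 2.71-fold, and the inguinal 0.45 ± 0.24 (adjusted p = 0.226) and epididymal -0.06 ± 0.24 (adjusted p = 0.89) did not. The difference of these differences, brown against epididymal, was 1.50 ± 0.34 (adjusted p = 0.0377), and brown against inguinal 0.99 ± 0.34 (adjusted p = 0.212).

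Among carriers of amino acids and glutathione, 2 of 6 tested members were higher in adipocytes of brown and of inguinal fat and none in epididymal fat. Of all genes, 12.7%, 9.16% and 18.1% were called higher in brown, inguinal and epididymal fat. Slc25a44, which imports branched-chain amino acids, differed by 1.65 ± 0.25 (adjusted p = 0.000487) in brown fat, 1.25 ± 0.25 (adjusted p = 0.00565) in inguinal fat and 0.64 ± 0.25 (adjusted p = 0.0763) in epididymal fat. Its range was -0.76 to 0.02 in brown adipocytes and -2.31 to -1.83 in brown SVF. Slc25a39, needed for glutathione import, differed by 1.62 ± 0.37 (adjusted p = 0.00566), 1.16 ± 0.37 (adjusted p = 0.0478) and 0.83 ± 0.37 (adjusted p = 0.11). It read from 4.80 to 5.90 in brown adipocytes and from 3.44 to 3.82 in brown SVF. The kept probes of Slc25a39, tested separately, gave different calls in inguinal fat. Neither carrier's fractions overlapped in brown fat. Slc25a40, the close relative of Slc25a39, differed by 0.33 ± 0.25 (adjusted p = 0.398) there. Slc25a38, which brings glycine in for haem synthesis, differed by 0.33 ± 0.29 (adjusted p = 0.464) and the basic amino acid carrier Slc25a29 by 0.43 ± 0.36 (adjusted p = 0.457), while the ornithine carrier Slc25a2 differed by 0.46 ± 0.39 (adjusted p = 0.459). None of these 4 passed in any fraction comparison.

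Slc25a22, the tested glutamate carrier, read 2.01, 1.15 and 1.43 in brown adipocytes and -0.78, 0.81 and -0.79 in brown SVF. In inguinal fat it had 0.68, 0.06 and 1.58 in adipocytes and -0.55, -1.06 and -0.49 in SVF. Epididymal levels were 0.14, 0.32 and -0.29 in adipocytes and -0.58, -0.84 and -1.41 in SVF. Adipocyte arrays lay above SVF arrays in each depot, and the nearest SVF value in brown fat was that of replicate 2, the array with the high adipocyte marker sum. The differences were 1.78 ± 0.45 (adjusted p = 0.0106) in brown fat, 1.47 ± 0.45 (adjusted p = 0.0415) in inguinal fat and 1.00 ± 0.45 (adjusted p = 0.117) in epididymal fat. Its paralogue Slc25a18 was above background on 1 of 3 arrays at most in any group and was not tested.

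Of 8 tested carriers of nucleotides and cofactors, 6 were higher in adipocytes of brown fat, 3 in inguinal and 3 in epididymal fat. None was lower, and the median differences were 1.26, 1.26 and 1.06. Of all genes, 12.7%, 9.16% and 18.1% were called higher and 8.35%, 4.81% and 6.91% lower in the same order of depots. Slc25a42 carries coenzyme A into the matrix. It read -1.39, -2.33 and -1.24 in brown adipocytes and -5.03, -4.95 and -4.81 in brown SVF, a difference of 3.28 ± 0.76 (adjusted p = 0.00648) or 9.71-fold. Epididymal adipocytes had -1.23, -4.08 and -2.69 and epididymal SVF -4.57, -5.35 and -4.96, a difference of 2.30 ± 0.76 (adjusted p = 0.039). Neither depot's fractions overlapped, and the epididymal adipocyte replicates lay far apart. Inguinal values were -5.71, -3.80 and -2.43 in adipocytes, 2 of 3 above background, and -6.41, -5.62 and -4.43 in SVF, 1 of 3 above background, with a difference of 1.51 ± 0.76 (adjusted p = 0.198). Slc25a16, which is linked to coenzyme A as well, differed by 1.31 ± 0.41 (adjusted p = 0.0314) in brown fat, 1.21 ± 0.41 (adjusted p = 0.0595) in inguinal fat and 1.29 ± 0.41 (adjusted p = 0.031) in epididymal fat. The peroxisomal carrier Slc25a17 differed by 1.15 ± 0.28 (adjusted p = 0.00916) in brown fat, and by 0.77 ± 0.28 (adjusted p = 0.0816) and 0.39 ± 0.28 (adjusted p = 0.335) in the white depots. The kept probes of Slc25a17, tested separately, gave different calls in brown and in inguinal fat. Slc25a32, tied to folate and flavin, did not pass in any fraction comparison, with 0.51 ± 0.27 (adjusted p = 0.216) in brown fat.

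Slc25a33 and Slc25a36 both carry pyrimidine nucleotides, but their values differed. Slc25a33 read 2.96, 1.88 and 3.12 in brown adipocytes and 0.23, 2.18 and 0.42 in brown SVF, which overlapped through brown SVF replicate 2. In inguinal fat it read 1.23, 1.27 and 1.74 in adipocytes and -0.53, -0.10 and 0.18 in SVF, and in epididymal fat 1.00, 1.11 and 0.81 in adipocytes and -0.24, 0.18 and -0.74 in SVF. White adipocyte arrays all lay above the SVF arrays of their depot. The differences were 1.71 ± 0.46 (adjusted p = 0.0146) in brown fat, 1.56 ± 0.46 (adjusted p = 0.035) in inguinal fat and 1.24 ± 0.46 (adjusted p = 0.0593) in epididymal fat. Slc25a36 read -1.56, -1.46 and -1.64 in adipocytes and -1.97, -1.93 and -1.67 in SVF in brown fat, -2.25, -2.26 and -1.70 in adipocytes and -1.98, -1.62 and -1.59 in SVF in inguinal fat, and -1.96, -1.99 and -2.28 in adipocytes and -1.77, -1.71 and -1.44 in SVF in epididymal fat. Its adipocyte arrays were the higher in brown fat and the lower in epididymal fat, and the inguinal fractions overlapped. None of its differences passed, at 0.31 ± 0.22 (adjusted p = 0.365), -0.34 ± 0.22 (adjusted p = 0.306) and -0.43 ± 0.22 (adjusted p = 0.157).

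The iron carriers, the mitoferrins, feed haem and iron-sulphur cluster synthesis, and neither passed in a fraction comparison. Slc25a28 read 2.91, 2.69 and 3.48 in brown adipocytes and 1.90, 2.11 and 2.23 in brown SVF. Slc25a37 read 0.74, 0.96 and 1.14 in adipocytes and 1.62, 1.58 and 2.15 in SVF there. By the probes that stood for them, the brown adipocyte arrays were above the brown SVF arrays for Slc25a28 and below them for Slc25a37. The differences were 0.94 ± 0.33 (adjusted p = 0.0555) and -0.84 ± 0.30 (adjusted p = 0.0599). With the replicate number as a block both passed, at adjusted p = 0.0198 and 0.0379, but same-numbered brown samples did not all deviate together. A second kept probe of Slc25a37 went the other way, with a higher mean in brown adipocytes than in brown SVF. It read -2.50, -3.51 and -2.82 in brown adipocytes and -3.39, -3.31 and -3.49 in brown SVF, which overlapped. In inguinal fat Slc25a28 read 2.88, 2.06 and 3.46 in adipocytes and 2.81, 2.12 and 2.74 in SVF. In epididymal fat it read 2.62, 2.51 and 2.51 in adipocytes and 1.95, 1.85 and 2.48 in SVF. Slc25a37 read 1.34, 1.59 and 1.42 in inguinal adipocytes and 1.55, 1.15 and 2.48 in inguinal SVF. Its epididymal values were 1.28, 1.40 and 1.29 in adipocytes and 1.57, 1.11 and 1.66 in SVF. Within the white depots, only the epididymal fractions of Slc25a28 did not overlap, with every adipocyte array above every SVF array.

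The relatives of the uncoupling proteins among the members, Slc25a14, Slc25a27 and Slc25a30, included no call in brown fat and only lower calls in white fat by the probes that stood for them. Slc25a27 read -1.94, -1.93 and -1.37 in inguinal adipocytes and 0.47, -0.64 and -0.67 in inguinal SVF. Epididymal levels were -2.07, -1.99 and -1.72 in adipocytes and -0.74, -0.80 and -0.34 in SVF, and brown ones -1.46, -1.43 and -0.88 in adipocytes and -1.51, -0.86 and -0.06 in SVF. The white adipocyte arrays lay below the SVF arrays of their depot without overlap, and the brown fractions overlapped. The differences were -1.47 ± 0.37 (adjusted p = 0.0176) in inguinal, -1.31 ± 0.37 (adjusted p = 0.019) in epididymal and -0.45 ± 0.37 (adjusted p = 0.44) in brown fat. Its other 2 kept probes passed in the same direction in both white depots. Slc25a14 was lower in inguinal adipocytes, with a difference of -0.75 ± 0.19 (adjusted p = 0.0186), and differed by -0.54 ± 0.19 (adjusted p = 0.0508) in epididymal and -0.17 ± 0.19 (adjusted p = 0.592) in brown fat. Slc25a30 did not pass, with -0.30 ± 0.29 (adjusted p = 0.518), 0.59 ± 0.29 (adjusted p = 0.183) and 0.59 ± 0.29 (adjusted p = 0.147), but 1 of its other kept probes was higher in inguinal adipocytes and another in epididymal adipocytes.

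Of the 5 remaining members tested, Slc25a46, a carrier-like protein of the outer membrane that shapes mitochondria, differed by 0.94 ± 0.22 (adjusted p = 0.00667) in brown fat, 0.69 ± 0.22 (adjusted p = 0.0477) in inguinal fat and 0.08 ± 0.22 (adjusted p = 0.828) in epididymal fat by the probe that stood for it. Its probes did not give the same calls. Another kept probe gave 0.94 ± 0.37 (adjusted p = 0.0946), 1.86 ± 0.37 (adjusted p = 0.00498) and 0.91 ± 0.37 (adjusted p = 0.0906), and the third gave 0.79 ± 0.29 (adjusted p = 0.074), 1.21 ± 0.29 (adjusted p = 0.0138) and 0.88 ± 0.29 (adjusted p = 0.0401). In epididymal fat these other probes read higher on every adipocyte array than on any SVF array. By the probe that stood for the gene, brown adipocyte arrays ran from 3.81 to 4.17 and brown SVF arrays from 2.95 to 3.08. Slc25a45 read -1.33, -0.66 and -1.04 in brown adipocytes and 0.38, -0.39 and 0.32 in brown SVF, a difference of -1.11 ± 0.36 (adjusted p = 0.0394). In epididymal fat it read -0.85, -0.40 and -0.29 in adipocytes and 0.37, 0.48 and 0.84 in SVF, a difference of -1.08 ± 0.36 (adjusted p = 0.04). Inguinal levels were 0.07, -0.31 and -0.90 in adipocytes and -0.23, 0.40 and 1.17 in SVF, overlapping, with -0.83 ± 0.36 (adjusted p = 0.139). In the depots where it passed, every adipocyte array was below every SVF array. By the probe that stood for it, Slc25a43 was above background on no adipocyte array and did not pass, and its other probe, which was not kept, was above background on 1 adipocyte array. Slc25a34 read -2.48, -5.00 and -3.49 in epididymal adipocytes and -4.18, -5.54 and -3.60 in epididymal SVF, overlapping, with a difference of 0.78 ± 0.58 (adjusted p = 0.344). It read -5.02, -4.51 and -4.03 in adipocytes and -4.05, -4.61 and -4.61 in SVF in inguinal fat, and -4.27, -4.44 and -3.96 in adipocytes and -4.98, -4.75 and -3.69 in SVF in brown fat, where no adipocyte array was above background. Its levels overlapped between all fractions.

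Slc25a35 had the largest epididymal difference of the members, but its probes did not give the same picture. The second probe, which stood for the gene, read 3.04, 0.66 and 1.66 in epididymal adipocytes and -3.15, -3.25 and -2.99 in epididymal SVF, a difference of 4.92 ± 1.00 (adjusted p = 0.00376) or 30.3-fold. On the same arrays the first probe read -2.24, -2.10 and -1.68 in adipocytes and -3.24, -2.84 and -2.82 in SVF, a difference of 0.96 ± 0.43 (adjusted p = 0.122). Both probes kept the epididymal adipocytes above the SVF, but only the second passed. In brown fat the second probe read -0.43, 0.02 and 0.05 in adipocytes and -1.96, -2.25 and 0.79 in SVF, overlapping, a difference of 1.02 ± 1.00 (adjusted p = 0.525). The first probe read 1.02, 0.51 and 1.46 in adipocytes and -2.03, -1.06 and -1.90 in SVF there, with no overlap and a difference of 2.66 ± 0.43 (adjusted p = 0.00075). In inguinal fat the second probe read -2.25, 1.89 and -0.89 in adipocytes and -3.89, -3.42 and -1.12 in SVF, overlapping, and its difference was 2.39 ± 1.00 (adjusted p = 0.125). The first probe gave -1.70, -1.74 and -0.34 in adipocytes and -4.28, -3.20 and -2.89 in SVF, with a difference of 2.20 ± 0.43 (adjusted p = 0.00474). By the first probe the brown and inguinal fractions differed and the epididymal ones did not pass, while by the second the epididymal fractions alone passed. No single level of Slc25a35 can be read from these arrays.

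**Figure D4:**
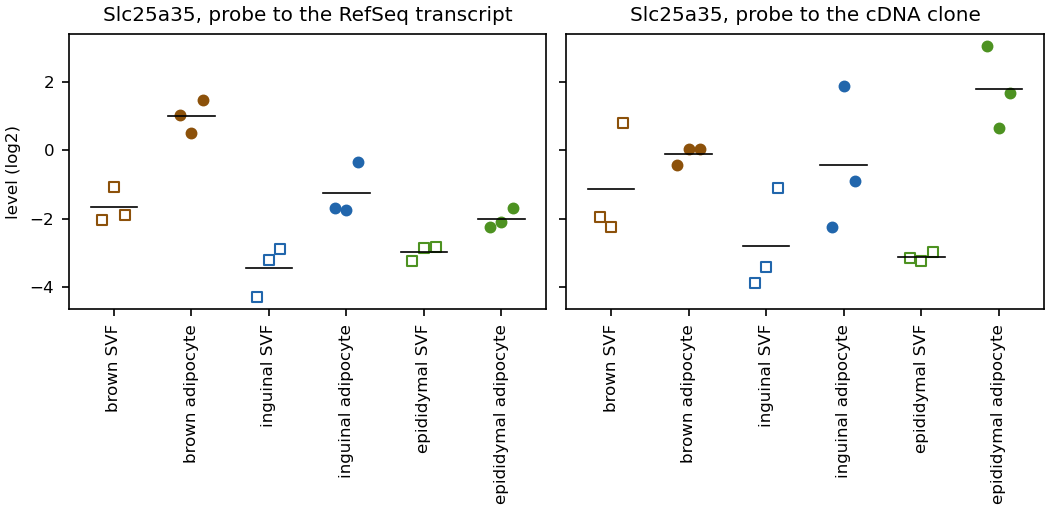
Levels of Slc25a35 by its first probe (RefSeq transcript) and its second probe (cDNA clone), log2 relative to the array's 75th percentile, 1 point per array in the 6 groups. By the first probe the brown adipocytes are highest, and by the second the epididymal adipocytes.

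Among adipocytes, 9 members were higher and 2 lower in brown than in epididymal cells, against 12.3% and 16.5% of all genes. The median difference was 0.34 over the members and -0.01 over all genes. Slc25a11 differed by 1.68 ± 0.24 (adjusted p = 0.000385), Slc25a33 by 1.68 ± 0.46 (adjusted p = 0.0144) and Slc25a22 by 1.47 ± 0.45 (adjusted p = 0.0248). Slc25a32 differed by 1.18 ± 0.27 (adjusted p = 0.00576), reading 1.53, 1.50 and 1.65 in brown and 0.63, 0.46 and 0.03 in epididymal adipocytes. Others higher in brown cells were Slc25a44, Slc25a17, Slc25a46 and Slc25a38, by 1.16, 0.87, 0.86 and 0.86. The call of Slc25a46 rests on 1 of its 3 kept probes, as the others gave 0.15 ± 0.37 (adjusted p = 0.794) and -0.06 ± 0.29 (adjusted p = 0.899). The other kept probes of Slc25a17, Slc25a24 and Slc25a25 had the sign of the one used but did not pass here. That of Slc25a24 was above background on no brown adipocyte array. Probes of Slc25a3, Slc25a27 and Slc25a35, which were not called by the probe used, also gave different calls when tested separately. The lower ones were Slc25a24, at -1.69 ± 0.30 (adjusted p = 0.00143), and Slc25a25, at -1.11 ± 0.35 (adjusted p = 0.0277), both ATP-Mg/phosphate carriers. None of the 11 overlapped between the groups. Counting members called or not, 22 did not overlap here, so a lack of overlap does not set the calls apart. The share of all genes without overlap is not given, so these counts are not read as a result about the members. The calls kept included those of Slc25a11, Slc25a24, Slc25a32, Slc25a44 and Slc25a46, which held in all 18 fits that left out an array, while the fits called 6 to 12 members. The count was 6 without brown adipocyte replicate 1 or 3 and 7 without epididymal adipocyte replicate 3, and it was 2 without the 3 libraries named above, with 1 epididymal adipocyte array left and its spread taken from the other groups. Adjusted p of the lost calls reached 0.134. Summed macrophage markers were 1.023 to 3.22 in brown and 11.77 to 28.13 in epididymal adipocytes, and mesothelial markers were at 12.3 to 23.42 in the latter. Their part was not tested.

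Between brown and inguinal adipocytes, 3 members were higher in brown cells and none lower. The background was 6.33% higher and 5.84% lower. Slc25a11 differed by 1.15 ± 0.24 (adjusted p = 0.00821) and Slc25a32 by 1.05 ± 0.27 (adjusted p = 0.0213), each without overlap. Slc25a32 read 0.09, 0.90 and 0.54 in inguinal adipocytes. Each of the 3 calls was lost in at least 1 fit that left out an array, with adjusted p up to 0.171. The count ran from 0 without inguinal adipocyte replicate 1 to 7 without inguinal adipocyte replicate 3. It was 1 without brown adipocyte replicate 1 or 3, 5 without brown adipocyte replicate 2 and 6 without inguinal SVF replicate 3. A fit on the 6 arrays compared called none. Slc25a42 had a larger difference of 2.33 ± 0.76 (adjusted p = 0.0592), which did not pass. Probes of Slc25a27 and Slc25a35, which were not called by the probe used, gave different calls when tested separately. Progenitor and fibroblast markers summed to 43.98 to 58.79 in brown and 73.06 to 305.3 in inguinal adipocytes, macrophage markers to 1.023 to 3.22 and 6.516 to 32.78, and lymphocyte markers to 0.7876 to 1.033 and 1.176 to 30.89, and their part was not tested.

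**Figure D5:**
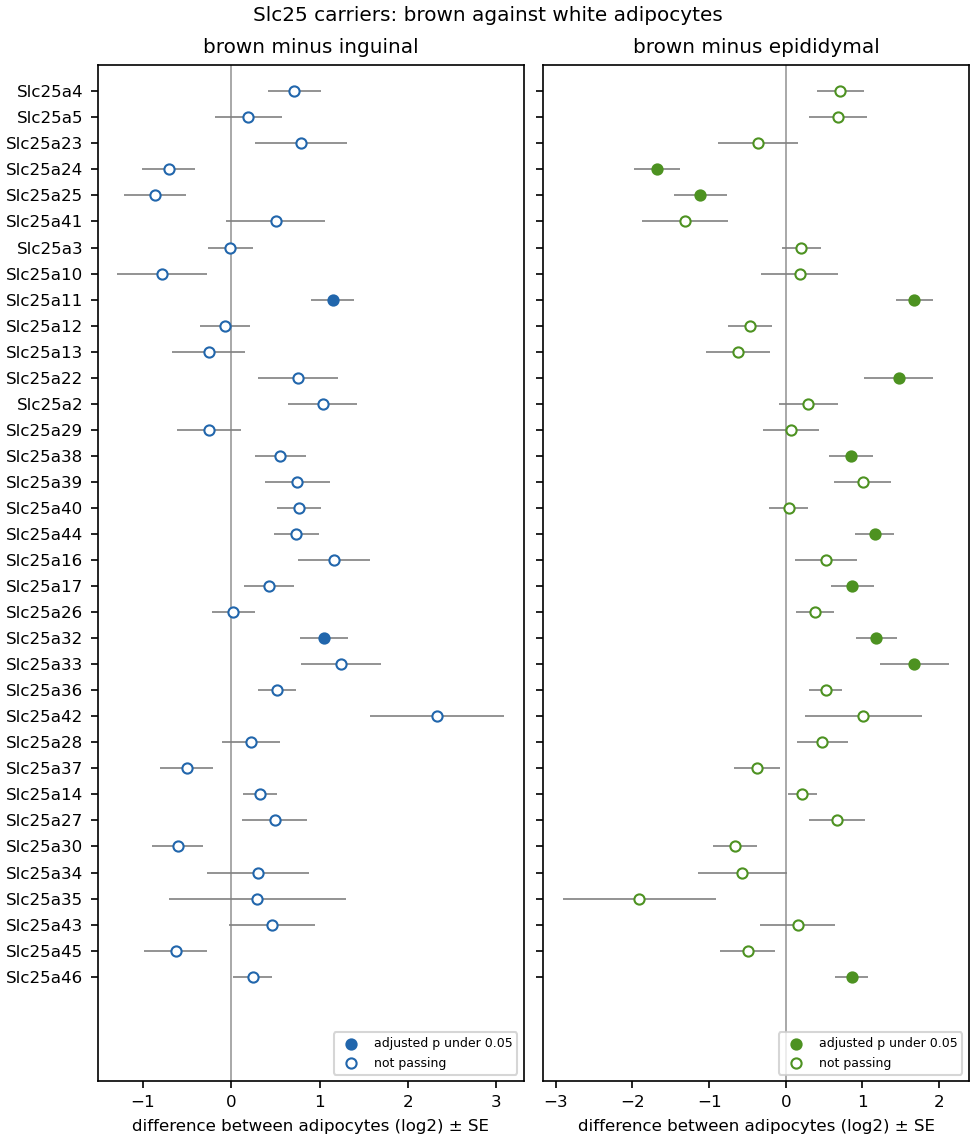
Difference between brown and inguinal adipocytes (left) and brown and epididymal adipocytes (right) for 35 of the 36 tested carriers (log2, horizontal axis). Points are fitted differences with their standard error over 3 arrays per group, and filled points have an adjusted p under 0.05. There are 2 filled points on the left and 10 on the right, of which 2 lie below 0.

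Inguinal and epididymal adipocytes gave no call among the members by limma. At an unadjusted p under 0.05, 2 members were higher and 5 lower, against 24.9% of all genes in either direction. After adjustment, 0.879% of all genes were called higher in inguinal and 6.83% in epididymal cells. Slc25a35 had the largest difference, -2.21 ± 1.00 (adjusted p = 0.187) by its second probe.

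No member was called by limma between the SVFs of any pair of depots by the probe that stood for it. The probes of Slc25a35, tested separately, gave different calls between brown and inguinal SVF. Its first probe read -2.03, -1.06 and -1.90 in brown SVF and -4.28, -3.20 and -2.89 in inguinal SVF. At an unadjusted p under 0.05, 3 members were higher and 1 lower in brown than inguinal SVF, against 16.8% of all genes. In brown against epididymal SVF 2 were higher and 1 lower at that level, against 10.9% of genes. In inguinal against epididymal SVF 0 were higher and 1 lower, against 9.35% of genes. After adjustment, the shares of all genes called higher and lower were 1.90% and 0.479%, 1.06% and 0.723%, and 0.0572% and 0.239%, in the same order. The 6 brown adipocyte markers summed to 64.36 to 173.3 in brown SVF, and to 0.984 to 4.357 in inguinal and 1.329 to 2.621 in epididymal SVF.

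Whether the fraction difference itself differed between depots was tested for each member. Brown minus epididymal gave 1 higher and 1 lower member, with 0.531% and 1.49% of all genes called. Slc25a11 had the larger adipocyte excess in brown fat, by 1.50 ± 0.34 (adjusted p = 0.0377). Slc25a25 had the larger one in epididymal fat, with -2.27 ± 0.49 (adjusted p = 0.0291). Its kept probes, tested separately, gave different calls here. The calls of both members were lost in several fits that left out an array, at adjusted p up to 0.0961, and the fits called 0 to 2 members. The count was 0 without any 1 of brown SVF replicates 1 and 2, brown adipocyte replicates 1 and 3, epididymal SVF replicate 3 and epididymal adipocyte replicate 3. Brown minus inguinal gave no call by limma. At an unadjusted p under 0.05, 2 members were higher and 2 lower, against 13.6% of all genes. After adjustment, 0.130% of genes were called higher and 0.729% lower. Inguinal minus epididymal gave no call either, with 0 and 1 at the unadjusted level, against 11.5% of genes. After adjustment, 0.0156% and 0.0624% of genes were called there. For Slc25a35 the brown minus epididymal value of -3.90 ± 1.42 (adjusted p = 0.143) did not pass.

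The genes around the carriers gave the following counts. Of all genes, 12.7%, 9.16% and 18.1% were called higher in brown, inguinal and epididymal adipocytes than in SVF. The shares called lower were 8.35%, 4.81% and 6.91%. Of the 3 uncoupling proteins, Ucp3 was higher in adipocytes of all depots, by 4.49 ± 1.11 (adjusted p = 0.00941) in brown fat, 5.66 ± 1.11 (adjusted p = 0.00477) in inguinal fat and 4.89 ± 1.11 (adjusted p = 0.00633) in epididymal fat. Ucp1 differed by 3.60 ± 1.56 (adjusted p = 0.122) in brown fat, which did not pass. Its fractions did not overlap there, at 8.11, 7.24 and 7.89 in adipocytes and 3.64, 4.50 and 4.30 in SVF. The standard error comes from the spread shared by all 6 groups. Ucp1 passed in inguinal and epididymal fat at 8.29 ± 1.56 (adjusted p = 0.00371) and 5.20 ± 1.56 (adjusted p = 0.0248). It was above background on 1 of 3 SVF arrays in each white depot, and with the values under the lowest signal well above background raised to it the differences were 7.35 and 4.49. In epididymal fat it read -3.34, -1.05 and 4.51 in adipocytes and -5.61, -2.29 and -7.58 in SVF, which overlapped, and the highest value was that of adipocyte replicate 3, the array with the high sum of brown adipocyte markers, of which Ucp1 is 1. Ucp2 passed in none of the 3, with -0.62 ± 0.37 (adjusted p = 0.274) in brown fat. Of 13 genes for the import of carrier proteins into the inner membrane, 11 were higher in brown adipocytes, 3 in inguinal ones and 2 in epididymal ones, where 1 was lower. Timm10 and Timm9, chaperones that lead carriers across the space between the membranes, differed by 2.34 ± 0.40 (adjusted p = 0.00103) and 1.75 ± 0.35 (adjusted p = 0.00263) in brown fat. Between brown and epididymal adipocytes 9 of the 13 were higher and none lower.

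Of 19 other mitochondrial transport genes tested, 9 were higher and 1 lower in brown adipocytes, 7 and 1 in inguinal ones and 4 and 0 in epididymal ones. Mpc1 and Mpc2, which form the pyruvate carrier, were higher in all 3 depots, with 2.87 ± 0.48 (adjusted p = 0.000859) and 2.56 ± 0.37 (adjusted p = 0.00034) in brown fat. Sfxn3, a sideroflexin, was the lower one, with -1.68 ± 0.34 (adjusted p = 0.00261). Of 13 mitochondrial reference genes, which are enzymes and subunits of the citric acid cycle, respiratory chain and ATP synthase together with Tfam, a transcription factor for mitochondrial DNA, 12 were higher in brown, 12 in inguinal and 5 in epididymal adipocytes. Their median differences were 2.26, 1.59 and 0.83, against 0.71, 0.45 and 0.42 for the carriers. Between brown and inguinal adipocytes 11 of the 13 were higher and between brown and epididymal adipocytes 12, where 3 and 9 of 36 carriers were. These are descriptions of lists, and no test between the lists was made.

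Promoters were looked at because several carriers were called in the same direction, and whether they moved together was not tested. RefSeq sequences of build GRCm38.p6 held a promoter for 30 of the 40 members. The 250 bases before each start were searched on both strands for TCAAGGTCA, the extended site of the oestrogen-related receptors, and for CGCATGCG, the core of the NRF1 motif. The members held the first in 0 of 30 and the second in 0 of 30, while 0.422% and 1.75% of 27025 genes with a promoter held them. No match says only that these letters are not in these windows.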

How the data were processed

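RNA of 18 samples was hybridised to 1-colour Agilent arrays. Per the file headers, the authors extracted the images with Feature Extraction, which gives a background-corrected processed signal (intensity) per spot and marks spots well above background. The deposited series matrix holds the authors' log2 values of 31201 probes, whose normalization and centring are not given in the sources used here (column medians 8.12 to 8.13). All 18 of its columns matched best an array of their own group, but 4 of 18 the array of the same number, so it served only as an alternative. Spots of a probe were averaged after control and outlier spots were left out. The level is the log2 ratio of that average to the array's 75th percentile. Of 41174 probes, 28595 were kept, each clearly above background throughout 1 group or more, and the brightest kept probe stood for each of 19217 genes. Probe names came from 24375 accessions, 6301 symbols and 2426 synonyms, and 8072 kept the array's name. The newer gene names stood in 5 of 6 array files with names, and by the older ones 30 members were found.

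Groups were compared with limma 3.58.1 in R 4.3.3 (lmFit and eBayes, two-sided, 1 mean per group, prior of 2.98 degrees of freedom), with p-values adjusted by Benjamini-Hochberg over all genes and a threshold of 0.05. Probes were also tested separately. Fold values are 2 to the power of the difference. Tables and figures were made with Python 3.11.15, pandas 2.3.3 and matplotlib 3.10.9. Tested on simulated data for the brown fraction comparison over 19217 genes, the test recovered 8, 54, 82 and 90% of genes changed by 1, 2, 3 and 4 log2 units, with 10 false calls. The simulation changed far fewer genes than were called in brown fat and used independent normal noise without batches. Its figures are therefore not the power or error rate of the real test.

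Members with per-array values are those called in all 3 fraction comparisons, up to 4 per direction with the largest difference among those called without overlap, and the paralogues of a substrate. Others are given by range or difference. The values of 1 tested member are not reported here, though it is in the counts. The members, lists and rules were chosen with earlier results of these data known. Same-numbered samples deviated together at a correlation over 0.1 in all 3 pairs only in the epididymal fraction comparison (0.424, 0.483 and 0.138). All 3 correlations were also positive between brown and inguinal adipocytes (0.079, 0.116 and 0.167) and between brown and epididymal adipocytes (0.04, 0.081 and 0.125). The numbers were taken to pair the samples in the epididymal fraction comparison alone, from the data. The main test did not use this pairing. Normexp on mean signals could not be run, since 12 array files do not hold them. Median signals were used in its place, with local backgrounds above an array's 99th percentile set to it, as chosen after seeing the data. So was a fit on the 12 arrays of the newer software. The number of arrays limits the precision.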

Additional observations from a re-analysis of the deposited data

Results flagged for a closer look

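The difference between adipocytes and SVF differed between depots, by limma's test of the difference itself, for 2 members. Slc25a11, brown minus epididymal, gave 1.50 ± 0.34 (adjusted p = 0.0377), with every brown adipocyte array above the brown SVF arrays and overlapping fractions in epididymal fat. Slc25a25 gave -2.27 ± 0.49 (adjusted p = 0.0291), with overlapping fractions in brown fat and every epididymal adipocyte array above the epididymal SVF arrays. Its kept probes, tested separately, gave different calls. Of 18 fits that left out an array, 9 lost the call of Slc25a11 and 7 that of Slc25a25, with adjusted p up to 0.0961. The epididymal adipocyte arrays also differed from the other 9 arrays of this comparison in software version and scan day, which cannot be told apart from this difference.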

How the results depend on the processing

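Over 12 other settings and 18 fits that left out an array, no member's called difference changed sign. For calls whose groups did not overlap, leaving out an array could not reverse the sign by the same probe. The constant sign is therefore no check on those calls. Among differences of single members, 311 lost the threshold under a setting, 109 gained it and 12168 stayed on their side. Most of these differences were not called in the main fit, so the last total says little about the calls. Without inguinal SVF replicate 1 and epididymal adipocyte replicates 1 and 3 together, calls went from 15 to 4 in the inguinal and from 10 to 0 in the epididymal fraction comparison, from 11 to 2 between brown and epididymal adipocytes, and from 2 to 0 for the brown minus epididymal difference of fractions. With only the arrays of the groups compared, 0 members were called in inguinal fat and 0 between brown and inguinal adipocytes. Without a filter on dim probes the inguinal count was 8, and the brown minus epididymal difference of fractions had 0. That last count was 1 with normexp, 1 with quantile normalization and 1 with the mean of a gene's probes. Quantile normalization called 6 members between brown and inguinal adipocytes. Between inguinal and epididymal adipocytes the deposited matrix called 1 and the replicate block 1, in place of 0. The cause of these changes was not tested, except that fewer arrays were fitted in the first, where a single epididymal adipocyte array is left and is assumed to vary like the other groups. Leaving out 1 array gave 8 to 18 calls in brown, 4 to 14 in inguinal and 3 to 13 in epididymal fat, 0 to 7 between brown and inguinal, 6 to 12 between brown and epididymal and 0 to 2 between inguinal and epididymal adipocytes, and 0 to 2 for the brown minus epididymal difference of fractions.

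With the replicate number as a block, the brown, inguinal and epididymal fraction comparisons called 19, 17 and 11 members, and the brown minus epididymal difference of fractions 3. In the epididymal comparison, where the numbers were taken from the data to pair the samples, the block added 1 call and changed no other. Elsewhere the numbers were not taken to pair the samples. Quantile normalization moved the median of all genes from 0.07 to -0.13 in the epididymal fraction comparison, and normexp moved it from 0.15 to 0.36 and the deposited matrix to -0.02 in brown fat. The members' medians in the 3 fraction comparisons stayed above 0 under each scaling, at 0.49, 0.23 and 0.11 with quantile normalization and 0.36, 0.18 and 0.12 with the matrix. Members near background (Slc25a41, Slc25a43, Slc25a34) have bounds rather than levels in some groups.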

Other observations

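The array also carried carriers of the family outside the naming rule, singled out here after their values were seen. Slc25a51, the NAD carrier, read 4.04, 3.32 and 4.09 in brown adipocytes and 1.04, 2.19 and 1.10 in brown SVF, a difference of 2.37 ± 0.32 (adjusted p = 0.000268). It was higher in inguinal adipocytes, by 1.08 ± 0.32 (adjusted p = 0.0363), and did not pass in epididymal fat, with 0.41 ± 0.32 (adjusted p = 0.367). Its other kept probe passed in brown fat, at 2.88 ± 0.53 (adjusted p = 0.00178), but gave 0.11 ± 0.53 (adjusted p = 0.916) in inguinal fat, where its fractions overlapped. Brown adipocytes were above inguinal ones by 2.04 ± 0.32 (adjusted p = 0.00166) and above epididymal ones by 2.60 ± 0.32 (adjusted p = 0.000157). Slc25a48 read -2.90, -3.30 and -2.43 in brown adipocytes and was well above background on none of the 9 SVF arrays, so that brown adipocytes were at least 7.71-fold higher than brown SVF (measured against the lowest signal well above background, or the probe's own where higher). It entered the test only through the brown adipocytes, so no test is given. Slc25a20, which brings acylcarnitines in for fatty acid oxidation, differed by 2.55 ± 0.36 (adjusted p = 0.000308) in brown fat, 1.94 ± 0.36 (adjusted p = 0.00331) in inguinal fat and 0.65 ± 0.36 (adjusted p = 0.196) in epididymal fat. Slc25a1, the citrate carrier that supplies fatty acid synthesis, differed by 2.57 ± 0.58 (adjusted p = 0.00554), 3.20 ± 0.58 (adjusted p = 0.00311) and 1.40 ± 0.58 (adjusted p = 0.0915).

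The 4 members that were not tested came close to background everywhere. Slc25a15 was above background on at most 2 of 3 arrays of a group, and Slc25a18, Slc25a21 and Slc25a31 on at most 1.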
